A study of Arabidopsis thaliana with 8 samples.

Results

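Translational efficiency, the amount of ribosome footprints on a transcript relative to the amount of that mRNA, was compared between blue light and dark in Arabidopsis thaliana. The efficiency change is the log2 difference between blue light and dark in footprints minus the same difference in mRNA, so that 1 unit is a factor of 2 and a positive value means more footprints per mRNA in blue light. It could be tested at 6068 of 27206 nuclear loci. These are the loci with enough counts in both assays: 15686 nuclear loci had enough footprints and 7624 had enough mRNA counts, and 210 chloroplast and mitochondrial loci were set apart.

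All 8 libraries of the series entered the comparison. They form 4 groups of 2 libraries: footprints in blue light, footprints in dark, mRNA in blue light and mRNA in dark. Footprints are the stretches of mRNA that a ribosome shields from RNase I, and mRNA was sequenced from TruSeq libraries. Tissue, plant age, genotype, and how strong or how long the light was are absent from the labels, which also do not say whether the libraries of a group came from separate plantings. Any p-value here therefore rests only on variation among these libraries, which may be technical. The spread used was shared by both assays and lies below that of the mRNA libraries alone, so adjusted p can be too small. Whole samples were measured, so fewer cells of a type and less RNA per cell cannot be told apart.

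Ribosomes are loaded onto an mRNA by initiation at its 5′ end, and footprints per mRNA follow from how often this happens and how fast ribosomes move. A short upstream open reading frame (uORF) in the leader of an mRNA can hold ribosomes back from the main coding sequence. Seedlings that leave darkness switch from elongation growth on stored reserves to photosynthesis, with large changes in mRNA for chloroplast proteins and light-signalling components.

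The mRNA libraries were the shallower ones. At the tested loci the footprint libraries held 3683112 and 2809115 counts in blue light and 2081223 and 2253446 counts in dark. The mRNA libraries held 191734 and 171295 counts in blue light and 162648 and 195751 counts in dark. The median tested locus had a mean of 15.5 mRNA counts per library, against 125.75 footprint counts. Organelle loci took 48.5% to 51.8% of mRNA counts and 0.819% to 1.06% of footprint counts. Over the tested loci, the Spearman correlation between the 2 libraries of a group was 0.65 for mRNA in blue light and 0.68 for mRNA in dark. For footprints it was 0.99 in blue light and 0.99 in dark. The median standard error of an efficiency change was 0.49. Because mRNA is the denominator, an mRNA count that is low by chance in blue light raises the efficiency there, and such errors enter the mRNA and the efficiency change with opposite signs.

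Efficiency was higher in blue light at 364 loci (6.00% of those tested) and lower at 218 (3.59%) at an adjusted p under 0.05 by edgeR's quasi-likelihood test, 582 loci (9.59%) in all. The median change over all 6068 loci was 0.04. With RLE size factors in place of TMM the same loci gave 295 higher and 293 lower calls, because that scaling moved every change down (median change of -0.12 relative to TMM). The share of higher among all calls was thus 62.5% with TMM, 50.2% with RLE factors and 48.4% with DESeq2, which called 307 loci higher and 327 lower. The split between higher and lower therefore depends on the scaling. Changes below are given as fitted, with nothing subtracted, and stand beside the median of 0.04 over all loci. Leaving out any 1 footprint library left 215 to 238 higher and 96 to 119 lower calls.

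The loci called higher and lower differed in which side of the ratio had moved. Among the 364 higher loci, 236 had more footprints in blue light with no call in mRNA, 51 had less mRNA with no call in footprints, and 27 had more footprints on less mRNA. A further 26 rose in both assays and 8 fell in both, and 16 had no call in either. Among the 218 lower loci, 64 had more mRNA with no call in footprints, 56 rose in both assays, 71 had fewer footprints with no call in mRNA, and 7 had fewer footprints on more mRNA. The remaining lower loci were 4 that fell in both assays and 16 with no call in either. In the median higher locus footprints differed by 1.28 and mRNA by -0.52, whereas in the median lower locus footprints differed by -0.22 and mRNA by 1.35. The mRNA and footprint contrasts are the parts of the efficiency change and so are no separate support for it. For scale, mRNA was called at 10.1% of tested loci, higher at 6.18% and lower at 3.92%, and footprints at 37.8%, higher at 21.8% and lower at 15.9%.

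**Figure D1:**
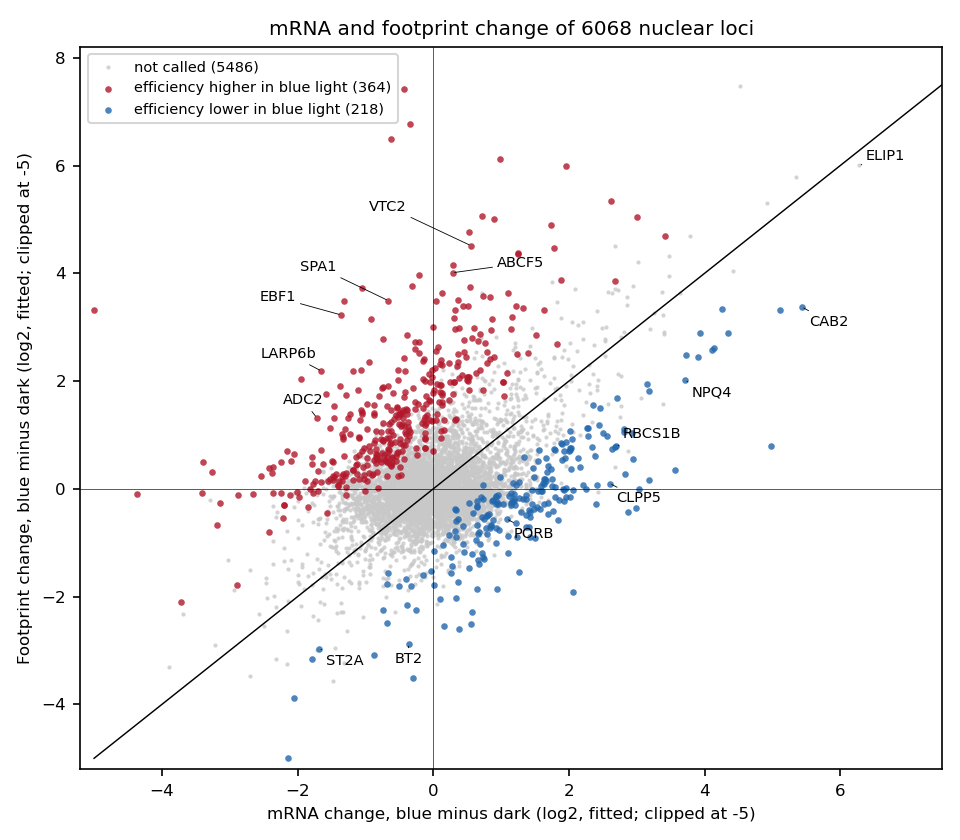
Log2 change in footprints (blue light minus dark, vertical axis) against log2 change in mRNA (horizontal axis) for the 6068 tested nuclear loci, 1 point per locus, with colours for the 364 loci of higher and the 218 of lower efficiency. Values below -5 are drawn at -5, and points off the diagonal had unequal changes: the higher calls lie above it and the lower calls below it, many of them at a large mRNA change with little change in footprints.

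The largest rise among well-counted genes was in EBF1 (AT2G25490), an F-box protein that targets the ethylene transcription factor EIN3 for breakdown. EBF1 footprints were 238 and 199 CPM (counts scaled to a common library total over the tested loci, after TMM) in blue light and 18.6 and 27.8 CPM in dark. EBF1 mRNA was 86.7 and 109.9 CPM in blue light and 244 and 255 CPM in dark. The libraries of the light conditions did not overlap in either assay, and they moved in opposite directions. Its efficiency change was 4.59 ± 0.33 (SE, n = 2 libraries per group; edgeR adjusted p = 8.45e-10), made of 3.23 in footprints and -1.36 in mRNA. The paralog EBF2, named for comparison and outside the naming rule, had 41.8 and 51.1 CPM of footprints in blue light and 101 and 112 CPM in dark. EBF2 mRNA had 49.6 and 25 CPM in blue light and 157 and 124 CPM in dark. Both assays were lower in blue light for EBF2, and its efficiency change of 0.65 ± 0.46 was not called (edgeR adjusted p = 0.417).

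Enzymes of ascorbate and polyamine synthesis were among the largest rises. VTC2 (AT4G26850), which commits carbon to ascorbate as GDP-L-galactose phosphorylase, had 1956 and 1914 CPM of footprints in blue light and 77.6 and 91.2 CPM in dark. VTC2 mRNA was 153 and 199.8 CPM in blue light and 109 and 127 CPM in dark. Footprints were far apart between the conditions, while mRNA differed by 0.55, which was not called (edgeR adjusted p = 0.281). The efficiency change was 3.96 ± 0.35 (edgeR adjusted p = 3.83e-08). The 2 arginine decarboxylases, which make the precursor of putrescine, both rose. ADC2 (AT4G34710) had 838 and 828 CPM of footprints in blue light and 333 and 335 CPM in dark. ADC2 mRNA had 318 and 329.7 CPM in blue light and 885 and 1233 CPM in dark. More footprints lay on less mRNA, giving an efficiency change of 3.03 ± 0.22 (edgeR adjusted p = 8.45e-10). ADC1 (AT2G16500) had 233 and 247 CPM of footprints in blue light and 45.3 and 58.9 CPM in dark, on mRNA of 90.9 and 139.9 CPM in blue light and 157 and 352 CPM in dark. ADC1 thus followed the same pattern, with an efficiency change of 3.38 ± 0.38 (edgeR adjusted p = 1.06e-06).

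Other large rises were in genes of varied roles. LARP6b, a La-related RNA-binding protein, had 194 and 201 CPM of footprints in blue light and 42.2 and 44.2 CPM in dark. LARP6b mRNA was 119.8 and 94.9 CPM in blue light and 309.6 and 369 CPM in dark. The mRNA was the lower in blue light and the footprints the higher, and the efficiency change was 3.83 ± 0.28 (edgeR adjusted p = 8.45e-10). ABCF5 (AT5G64840), an ATPase of the ABC-F family, had 1018 and 1039 CPM of footprints in blue light and 66.4 and 61.2 CPM in dark, with mRNA of 302 and 145 CPM in blue light and 178 and 198 CPM in dark. Its mRNA ranges overlapped and its footprints did not, for an efficiency change of 3.73 ± 0.32 (edgeR adjusted p = 3.44e-08). SVR3, a chloroplast GTPase of the TypA type, had 707 and 754 CPM of footprints in blue light and 62.1 and 59.5 CPM in dark. Its efficiency change was 2.84 ± 0.29, on mRNA that did not pass the test. AGY1, the SecA motor of thylakoid protein import, changed by 2.63 ± 0.39. Of the 30 largest rises and falls, AGY1, CP5, ABCG1 and ROC4 overlap another annotated gene.

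The rest of the 15 largest rises ran between 2.62 and 4.33. ATGA2OX1, a gibberellin 2-oxidase that inactivates gibberellins, had footprint counts of 132 and 95 in blue light and 0 and 5 in dark. With so few dark footprints the fitted change of 4.33 ± 0.70 depends on single counts, and it ran between 3.44 and 7.98 as each library was left out. ATGA2OX1 passed the footprint filter only through blue light, so its footprints had to differ and no support is drawn from its call. 4CL3, a 4-coumarate:CoA ligase, changed by 3.11 ± 0.56, EMB3114 by 3.51 ± 0.37, the Nudix hydrolase NUDX19 by 2.88 ± 0.34, CP5 by 2.72 ± 0.33 and the ABC protein ABCI21 by 2.70 ± 0.50. XBAT31, a ubiquitin ligase, had mRNA counts of 7 and 13 in blue light and 12 and 49 in dark. Its change of 2.62 ± 0.52 was 1.33 without mRNA dark replicate 2 and was then not called (edgeR adjusted p = 0.169).

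**Figure D2:**
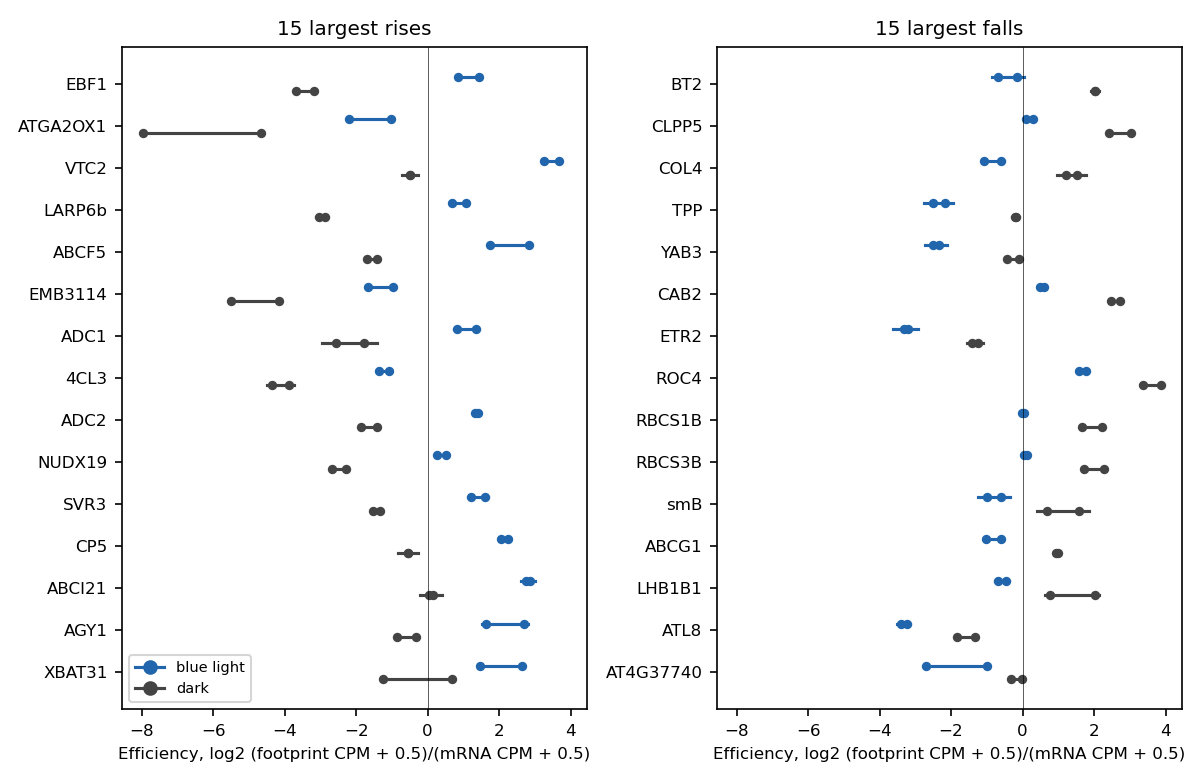
Efficiency level, the log2 ratio of footprint CPM to mRNA CPM (each + 0.5), of the 15 largest rises and 15 largest falls, with blue light above dark in each gene. Bars span the 4 pairings of a footprint with an mRNA library and dots are the same-numbered pairs; by the naming rule no gene's ranges overlap, and EBF1 spans 0.86 to 1.45 in blue light and -3.74 to -3.11 in dark.

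Opposite calls in mRNA and footprints were followed up in genes with a symbol, a choice made after their values were seen. Of 25 such genes, 19 had higher and 6 lower efficiency. Besides EBF1, ADC1, ADC2 and LARP6b, the higher ones included ATR1, a reductase that supplies electrons to cytochromes P450, at 2.55 ± 0.32. ATR1 had mRNA counts of 20 and 20 in blue light and 45 and 57 in dark, with footprint counts of 998 and 687 in blue light and 191 and 255 in dark. HMG1, the HMG-CoA reductase of isoprenoid synthesis, changed by 1.59 ± 0.25, with 0.29 in footprints and -1.29 in mRNA. CESA1, a catalytic subunit of cellulose synthase, changed by 1.44 ± 0.26, and BIG, a very large protein needed for auxin transport, by 1.43 ± 0.23. In HMG1, CESA1 and BIG the difference in mRNA was larger than that in footprints. On the other side, TPP (AT2G30440), a thylakoid processing peptidase, had 76.2 and 90.2 CPM of footprints in blue light and 107 and 112 CPM in dark. TPP mRNA was 347 and 519 CPM in blue light and 120.2 and 131 CPM in dark, so fewer footprints lay on more mRNA, and the efficiency change was -2.17 ± 0.28 (edgeR adjusted p = 1.24e-05). PORB (AT4G27440), a protochlorophyllide oxidoreductase of chlorophyll synthesis, changed by -1.64 ± 0.27, with 1.08 in mRNA and -0.56 in footprints. BGLU6 and MTN1 also belong here, but BGLU6 had mRNA counts of 0 and 0 in blue light and 12 and 11 in dark, and MTN1 had 8 and 0 in blue light and 18 and 22 in dark, so no size is given for them.

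**Figure D3:**
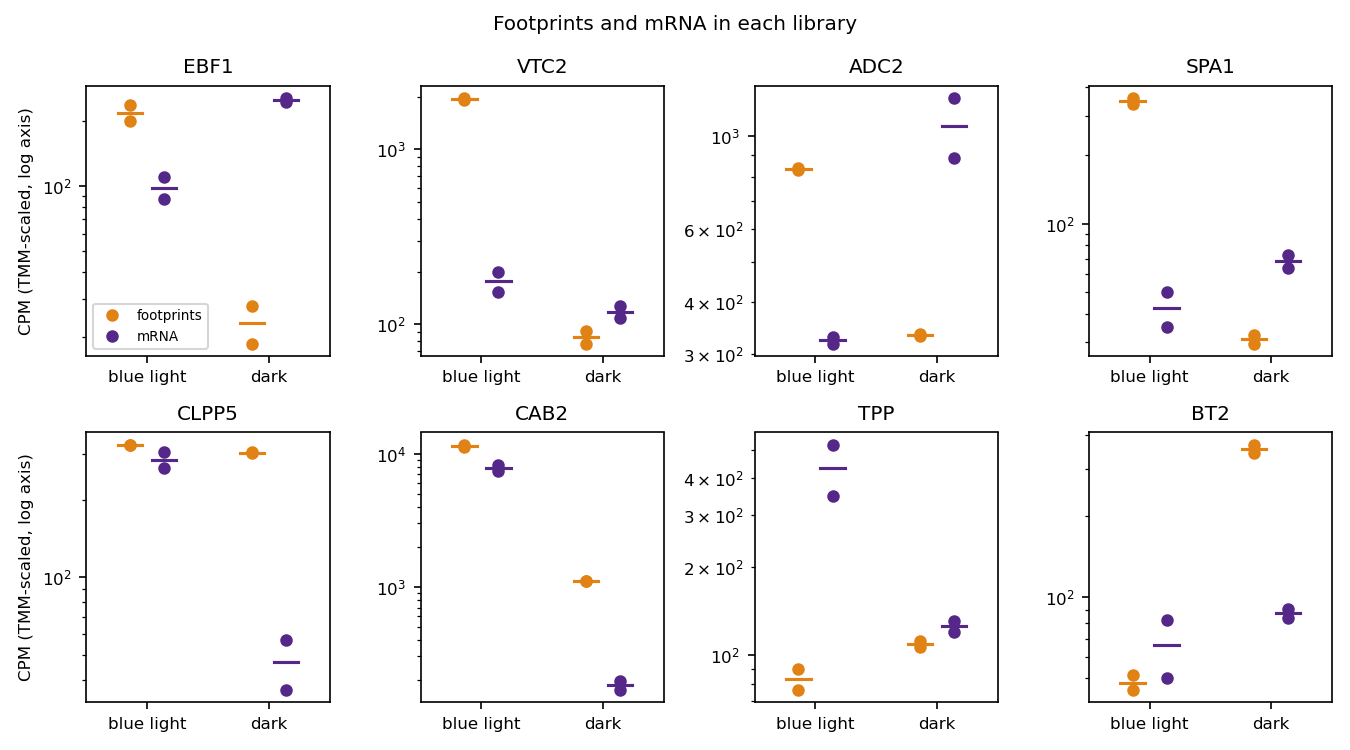
Footprint and mRNA CPM of every library on a log axis for EBF1, VTC2, ADC2, SPA1, CLPP5, CAB2, TPP and BT2, with dots for libraries and bars for means of 2, and blue light left of dark. EBF1 and ADC2 show more footprints on less mRNA in blue light, and CLPP5 more mRNA under similar footprints. VTC2 and SPA1 show more footprints with no call in mRNA, which was the higher in blue light for VTC2 and the lower for SPA1.

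Efficiency of several light-signalling genes was higher in blue light. Of 46 genes in this list, 31 could be tested, 9 had higher and 0 lower efficiency, and 28 were above 0. The median change was 0.84, against 0.04 over all loci. Over all tested loci 6.00% were called higher and 3.59% lower, and 3170 of 6068 were above 0. The lists below are to be read beside these shares. Of these 31, mRNA rose for 8 and fell for 1, and footprints rose for 18 and fell for 4. The higher genes include repressors of light signalling. SPA1, a partner of the COP1 ubiquitin ligase, had 358 and 338 CPM of footprints in blue light and 32.3 and 29.5 CPM in dark. SPA1 mRNA was 49.6 and 35 CPM in blue light and 72.8 and 63.7 CPM in dark. Its mRNA did not pass the test while its footprints rose, and the efficiency change was 4.16 ± 0.45 (edgeR adjusted p = 7.79e-07). Its relatives SPA3 and SPA4 changed by 2.87 ± 0.59 and 2.56 ± 0.51. RUP1, a repressor of the UVR8 photoreceptor, changed by 3.11 ± 0.54 and its relative RUP2 by 2.73 ± 0.81.

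Several of these calls rested on few counts. Without mRNA dark replicate 1, SPA3 changed by 1.81 (edgeR adjusted p = 0.161) and RUP1 by 1.99 (edgeR adjusted p = 0.106), and both lost their calls. The B-box protein BBX32 had the largest change of the list, 5.14 ± 0.72, from footprint counts of 312 and 249 in blue light and 3 and 3 in dark. Its mRNA counts were 12 and 23 in blue light and 8 and 15 in dark. BBX32 passed the footprint filter only through blue light, so its footprints had to differ and no support is drawn from its call. The calls of RUP2, the B-box protein STH, the phytochrome-interacting factor PIL6 (1.54) and the phototropin partner RPT2 (1.28) were each lost without at least 5 of the 8 libraries taken singly, with edgeR adjusted p of up to 0.154, 0.127, 0.149 and 0.197. Over the list, 5 to 10 genes were higher as each library was left out. DESeq2 called 9 of the 31 higher and 0 lower, beside 307 higher and 327 lower of all 6068 loci. At an unadjusted p under 0.05, 15 of the 31 were higher and 0 lower. The share of all loci under that unadjusted threshold was not counted, here or for the lists below. PHOT2, HY5, HYH and PIF3 had enough footprints but too few mRNA counts to be tested. Of the genes called in this list, BBX32, SPA3, SPA4 and STH overlap another annotated gene.

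The clock and flavonoid lists were small. GI (GIGANTEA), which links the clock to blue-light receptors, was the 1 called of 6 tested clock genes. The median change of the 6 was 1.32, with 5 above 0 and 1 below, at a median mean mRNA count of only 9.75. That median ran between 1.04 and 1.55 as each library was left out. GI footprints were 413 and 415 CPM in blue light and 79.4 and 71.9 CPM in dark, on mRNA of 86.7 and 89.9 CPM in blue light and 69.2 and 57.0 CPM in dark. Footprints separated the conditions by far more than mRNA did, and the change was 1.96 ± 0.39 (edgeR adjusted p = 0.00156). The clock factor LHY had 1.82 ± 0.59, which missed the threshold (edgeR adjusted p = 0.0529). In the phenylpropanoid and flavonoid list 4 of 10 tested genes were higher and 0 lower, with a median of 0.51. Flavanone 3-hydroxylase F3H changed by 4.04 ± 0.83 on mRNA counts of 10 and 20 in blue light and 6 and 4 in dark. F3H passed the mRNA filter only through blue light, so no support is drawn from its call. The flavonol glycosyltransferase UGT78D1 changed by 2.02 ± 0.40 and 4CL3 as given above. PAL4, a phenylalanine ammonia-lyase, changed by 1.28 ± 0.38 and lost its call without either blue-light or either dark footprint library, without mRNA blue replicate 1 and without mRNA dark replicate 2 (edgeR adjusted p of up to 0.22).

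Genes whose mRNA carries a uORF with a conserved peptide were listed because the series asks about uORFs. Of 33, 12 could be tested, 4 had higher and 0 lower efficiency, and the median change was 1.12. Of the 12, 8 were above 0, against 3170 of 6068 over all loci. Of these 12, mRNA rose for 0 and fell for 3, and footprints rose for 3 and fell for 2. VTC2, described above, belongs to this list. Its paralog VTC5 had 84.4 and 84.3 CPM of footprints in blue light and 7.45 and 7.36 CPM in dark, with mRNA counts of only 5 and 10 in blue light and 7 and 12 in dark, and changed by 3.45 ± 0.64. SAMDC, the S-adenosylmethionine decarboxylase of polyamine synthesis, had 331 and 327 CPM of footprints in blue light and 313 and 309.8 CPM in dark. SAMDC mRNA was 459 and 355 CPM in blue light and 870.4 and 1304 CPM in dark. Footprints were close while mRNA was lower in blue light, and the efficiency change was 1.49 ± 0.23 (edgeR adjusted p = 0.000103). SIP3, a CBL-interacting protein kinase, changed by 1.58 ± 0.49 on mRNA counts of 10 and 3 in blue light and 17 and 20 in dark, and lost its call without any 1 of 7 libraries (edgeR adjusted p of up to 0.201). The median of the list was 2.19 without mRNA blue replicate 1 and 0.72 without mRNA dark replicate 2, its extremes as each library was left out. At an unadjusted p under 0.05, 6 of the 12 were higher and 0 lower, a threshold whose share over all loci was not counted. DESeq2 called 4 of the 12 higher and 0 lower, beside 307 higher and 327 lower of all 6068 loci. The counts are per whole coding model, so footprints on uORFs were not analysed here.

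Genes of the photosynthetic apparatus included many falls. For the photosystem, electron transport and Rubisco list, 29 of 35 genes were tested, 19 had lower and 1 higher efficiency, and the median change was -1.06. Over all loci 3.59% were lower and 6.00% higher. Of these 29, mRNA rose for 25 and footprints for 28, and neither fell for any. The count of lower genes was 9 or 10 without any 1 footprint library and 16 to 19 without any 1 mRNA library. In the light-harvesting antenna list 8 of 19 tested genes were lower and 0 higher, with a median of -0.74, and mRNA rose for 18 and footprints for all 19. At an unadjusted p under 0.05, 11 antenna genes were lower and 1 higher, and 5 to 9 were lower as each library was left out. The lower efficiency in both lists therefore meant footprints that rose less than the mRNA did.

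CAB2 (AT1G29920), a chlorophyll a/b-binding protein of the photosystem II antenna, had 11316 and 11703 CPM of footprints in blue light and 1103 and 1117 CPM in dark. CAB2 mRNA was 7489 and 8266 CPM in blue light and 197 and 168 CPM in dark. Both assays were far higher in blue light, mRNA by 5.44 and footprints by 3.37, and the efficiency change was -2.06 ± 0.30 (edgeR adjusted p = 5.14e-05). CAB1, a near-identical neighbour, changed by 0.09 ± 0.29 and was not called. CAB3, of the same family, changed by 0.01 and was not called either (edgeR adjusted p = 0.984). LHB1B1, another antenna protein, changed by -1.80 ± 0.33. RBCS1B and RBCS3B, small subunits of Rubisco, changed by -1.91 ± 0.29 and -1.89 ± 0.29. The coding sequences of the CAB and RBCS families are so alike that reads could have been split between members or counted at several. The counting rules are not given in the sources used here, and the separate values are uncertain. The chloroplast loci ATCG00860 and ATCG01280 had the same mRNA counts in every mRNA library, 43540 and 40617 in blue light. Reads there were thus not split between the 2. RBCS1B footprints were 13585 and 14161 CPM in blue light and 8027 and 8012 CPM in dark, on mRNA of 13235 and 14295 CPM in blue light and 1729.9 and 2507 CPM in dark.

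Other genes of photosynthesis moved in both directions. NPQ4 (AT1G44575), the PsbS protein that switches on heat dissipation of excess light, had 2851 and 2796 CPM of footprints in blue light and 715 and 685 CPM in dark. NPQ4 mRNA was 4011 and 3991 CPM in blue light and 269.5 and 338 CPM in dark. No groups overlapped, and the efficiency change was -1.70 ± 0.23 (edgeR adjusted p = 2.89e-05). NPQ4 was the 1 lower gene of 9 tested in the photoprotection and carotenoid list, with 0 higher and a median of 0.25. That median was 0.08 without mRNA dark replicate 2, 0.46 without mRNA blue replicate 2 and -0.24 over the 4 genes left by a stricter filter (a mean of 50 counts). The median over all loci left by that filter was -0.19. The early light-induced proteins ELIP1 and ELIP2, of the same list, rose in mRNA by 6.28 and 5.35 and in footprints by 6.00 and 5.79, and their efficiency changes of -0.28 ± 0.44 and 0.44 ± 0.32 were not called. In the Calvin cycle list, with 15 tested genes and a median of -0.29, PRK (phosphoribulokinase) at -1.21 ± 0.24, PGK1 (a phosphoglycerate kinase) at -1.36 ± 0.28 and EMB3119 were lower. GAPA, a subunit of the chloroplast glyceraldehyde-3-phosphate dehydrogenase, was higher at 1.12 ± 0.28, and TIM, the chloroplast triosephosphate isomerase, at 0.93 ± 0.19. EMB3119 lost its call without any 1 of 7 libraries (edgeR adjusted p of up to 0.172). The median of the list was -0.11 without mRNA dark replicate 1. The call of GAPA was lost without any 1 footprint library and without mRNA blue replicate 1. PSBO1, a protein of the oxygen-evolving complex and the called rise of the photosystem list, changed by 0.89 ± 0.27 and lost its call without any 1 footprint library and without either blue-light mRNA library (edgeR adjusted p of up to 0.156).

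Chlorophyll synthesis held genes of both directions. Of 19 tested genes in the tetrapyrrole list 5 were lower and 1 higher, and the median was -0.33. PORB had 4812 and 5328 CPM of footprints in blue light and 7535 and 7375 CPM in dark, with mRNA of 1524 and 1698 CPM in blue light and 608 and 905 CPM in dark. CHLI1, a subunit of magnesium chelatase, changed by -1.57 ± 0.30 on more mRNA and more footprints. GUN5, the large subunit of the same enzyme, changed by -0.92 ± 0.28, whereas GUN4, its activator, changed by 0.86 ± 0.23. The calls of GUN4, GUN5, PORA (a relative of PORB) and GSA2 (an enzyme of 5-aminolevulinate synthesis) were each lost when at least 5 of the libraries were left out singly, and the number of lower genes then ran from 2 to 6. The median was -0.57 without mRNA dark replicate 2.

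Chloroplast ribosomal proteins make up the organelle's own translation machinery. Of 29 tested chloroplast ribosomal protein genes 8 were lower and 1 (RPL12-C) higher, and the median was -0.19. As each library was left out 6 to 9 were lower, and the median was -0.05 without mRNA dark replicate 1 and -0.50 without mRNA dark replicate 2. Of these 29, mRNA rose for 8 and footprints for 9. AT3G13120 had 506 and 543 CPM of footprints in blue light and 575 and 580.6 CPM in dark, on mRNA of 1095 and 1264 CPM in blue light and 288 and 385 CPM in dark. Its mRNA groups were far apart and its footprint groups were close, and the efficiency change was -1.94 ± 0.20 (edgeR adjusted p = 3.84e-07). AT2G43030 of the same list changed by -2.55 ± 0.28. RPL12-C changed by 0.83 ± 0.21 and lost its call without any 1 footprint library and without mRNA dark replicate 2, where it was 0.52.

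Of the other large falls, CLPP5 (AT1G02560), a proteolytic subunit of the chloroplast Clp protease, had more mRNA with no call in footprints. CLPP5 had 327 and 326 CPM of footprints in blue light and 304 and 306 CPM in dark. CLPP5 mRNA was 306 and 265 CPM in blue light and 36.4 and 57.0 CPM in dark. Footprints hardly separated the conditions and mRNA did, so the efficiency change was -2.50 ± 0.32 (edgeR adjusted p = 8.94e-06). The CONSTANS-like factor COL4 at -2.17 ± 0.25, the leaf-polarity factor YAB3 at -2.15 ± 0.30, the chloroplast cyclophilin ROC4 at -1.92 ± 0.38 and the spliceosomal protein smB at -1.86 ± 0.41 also had more mRNA with no call in footprints.

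BT2 (AT3G48360), a BTB and TAZ domain protein, fell on the other side of the ratio. BT2 footprints were 51.2 and 45.1 CPM in blue light and 346 and 369 CPM in dark. BT2 mRNA was 82.6 and 49.9 CPM in blue light and 83.8 and 90.5 CPM in dark. Footprints were well below the dark level and mRNA was not called, and the efficiency change was -2.52 ± 0.43 (edgeR adjusted p = 0.000352). The ethylene receptor ETR2 had 9.42 and 7.61 CPM of footprints in blue light and 43.4 and 39.1 CPM in dark, and changed by -1.99 ± 0.45. ABCG1, the ubiquitin ligase ATL8 and AT4G37740 likewise had fewer footprints with no call in mRNA. The change of ABCG1 was -1.82, and -1.62 with no call without mRNA blue replicate 1 (edgeR adjusted p = 0.0669). ATL8 changed by -1.79 and lost its call without dark footprint replicate 2 (edgeR adjusted p = 0.0624). AT4G37740 changed by -1.78, and by -0.92 without mRNA blue replicate 2 (edgeR adjusted p = 0.365); leaving out blue footprint replicate 2 or dark footprint replicate 1 also ended its call.

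The lists of the cytosolic translation machinery are read beside the shares over all loci. Of 18 tested cytosolic ribosomal protein genes 1 (STV1) was higher and 0 lower, against 6.00% and 3.59% over all loci. Their median was 0.08, and -0.04 with RLE factors, under which the median over all loci was -0.08. STV1, a large-subunit protein, changed by 2.16 ± 0.64. It passed the mRNA filter only through dark, so its mRNA had to differ and no support is drawn from its call. It had mRNA counts of 1 and 5 in blue light and 16 and 21 in dark and was 1.28 with no call without mRNA blue replicate 1 (edgeR adjusted p = 0.245). Of 28 tested translation factors 3 were higher and 1 lower, beside the same 6.00% and 3.59% over all loci, with a median of -0.10. Of these, eIFiso4G1, an initiation factor scaffold, lost its call without any 1 of 7 libraries (edgeR adjusted p of up to 0.269), and eEF-1Bb1, an elongation factor subunit and the lower one, without any 1 footprint library. PK1, a kinase of ribosomal protein S6, changed by 4.07 ± 0.56 on mRNA counts of 7 and 6 in blue light and 11 and 21 in dark. PK1 also passed the mRNA filter only through dark, so no support is drawn from its call. PAB2, a poly(A)-binding protein, had 1254 and 1265 CPM of footprints in blue light and 292 and 308 CPM in dark, on mRNA of 578 and 669 CPM in blue light and 357 and 506 CPM in dark. Its footprints rose and its mRNA was not called, and the change was 1.55 ± 0.22.

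The remaining lists are read beside the same shares. Among 17 tubulin and actin genes 1 (TUB4) was higher and 0 lower, near the share of 6.00% higher over all loci. Of the 17, 15 were above 0, against 3170 of 6068 over all loci, and the median was 0.54. The median was 0.19 without mRNA dark replicate 2, and 0 to 5 genes were higher as each library was left out. TUB4 changed by 1.17 ± 0.27, a call that leaving out the second footprint library of either light condition or mRNA blue replicate 1 ended. Among 14 tested genes of auxin response and cell elongation, BRI1, the brassinosteroid receptor, was higher at 1.12 ± 0.22 and 0 were lower; BRI1 fell in mRNA by 1.57 and in footprints by 0.45. Of 16 tested genes of dark and sugar starvation, BT2 was lower and 0 higher, and the median was -0.09, although mRNA fell for 8 and footprints for 15. Among 13 aquaporins edgeR called 0 higher and 0 lower, with a median of -0.21. At an unadjusted p under 0.05, 0 aquaporins were higher and 2 lower. DESeq2 called 0 of them higher and 2 lower, beside 307 higher and 327 lower of all 6068 loci.

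Of 9 tested genes of cytosolic glycolysis, UGP2 and TPI were lower and 0 higher, with a median of -0.26 that was -0.76 without mRNA dark replicate 2. UGP2, a UDP-glucose pyrophosphorylase, at -4.20, had mRNA counts of 14 and 12 in blue light and 1 and 0 in dark. It ran between -8.36 and -3.20 as each library was left out, so its size is not well determined. UGP2 passed the mRNA filter only through blue light, so its mRNA had to differ and no support is drawn from its call. TPI, the triosephosphate isomerase, changed by -1.21 ± 0.32 and lost its call without 5 of the libraries taken singly (edgeR adjusted p of up to 0.128). Of 8 heat-shock genes HSP101 (1.69 ± 0.45) and HSC70-1 (1.49 ± 0.27), both chaperones, were higher and 0 lower, and HSP101 lost its call without either dark footprint library and without either second mRNA library. ICL, the isocitrate lyase that turns seed oil into sugar, was the 1 called of 5 tested genes for seed reserves. ICL footprints were 10469 and 11619 CPM in blue light and 1137 and 1021 CPM in dark, and its mRNA was 7199.7 and 7297 CPM in blue light and 2568 and 3241 CPM in dark. Both assays rose, footprints more, for a change of 2.04 ± 0.26 (edgeR adjusted p = 7.58e-06). Root markers were present, with 8 of 11 genes tested, 1 higher and 0 lower, and a median of 0.00. The higher one was SCR, a factor of the root endodermis, whose change of 1.21 ± 0.33 lost its call without the second footprint library of either light condition, mRNA blue replicate 1 or mRNA dark replicate 2. The medians of several small lists moved with 1 library. Without mRNA dark replicate 2 they were -0.60 for auxin response, in place of -0.20, and 0.15 for heat shock, in place of 0.44. They were likewise -0.44 for starvation, -0.41 for aquaporins and -0.18 for cytosolic ribosomal proteins. Without mRNA dark replicate 1 they were 0.16 for starvation, 0.01 for aquaporins and 0.22 for cytosolic ribosomal proteins, and without mRNA blue replicate 2 they were 0.14 for translation factors, -0.09 for root markers and 0.89 for seed reserves, in place of -0.31. With RLE factors PIL6, RPT2, PAL4, SIP3, PSBO1 and eIFiso4G1 were not called (edgeR adjusted p of 0.0545, 0.0542, 0.0553, 0.0602, 0.0644 and 0.0644).

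**Figure D4:**
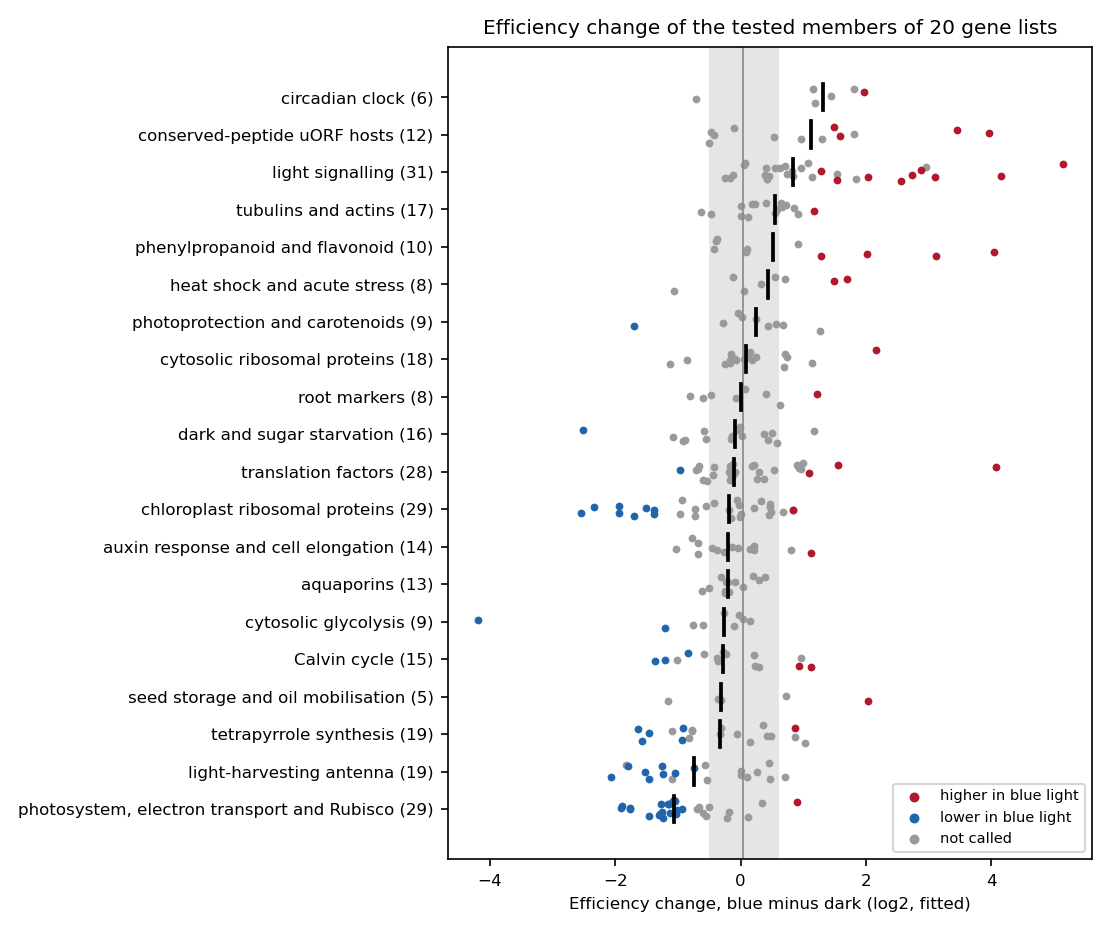
Efficiency change (log2, blue light minus dark) of every tested member of the 20 gene lists, 1 dot per gene coloured by call, with black bars for list medians, the grey band for the interquartile range of all tested loci and a line at their median of 0.04. Photosystem and antenna genes lie mostly left of the band's centre and light-signalling genes mostly right of it.

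The efficiency change varied with coding length. In the shortest tertile of coding length (28 to 400 by the deposited length, which is close to codons) the median change was -0.12, in the middle tertile (401 to 650) it was 0.04, and in the longest tertile (651 to 5384) it was 0.21. Higher calls made up 4.3%, 5.78% and 7.92% of these tertiles, and lower calls 6.97%, 2.82% and 0.99%. The median length was 587.5 for loci called higher, 322.5 for loci called lower and 509 for all loci. Over the same tertiles the median mRNA change was 0.07, -0.01 and -0.09, and the median footprint change -0.09, -0.04 and 0.06. Lists differ in length: the median was 177 for photosystem genes, 257 for antenna genes, 202 for chloroplast ribosomal protein genes and 534 for light-signalling genes. After subtracting the trend with length, an alternative chosen after seeing the data, 284 loci were higher and 242 lower, and list medians relative to all loci moved by unequal amounts. That of the photosystem list was -0.89, in place of -1.10, with 18 genes lower, and that of the antenna list -0.59, in place of -0.78, with 8 lower and 1 higher. For chloroplast ribosomal protein genes it was 0.01, in place of -0.23, with 8 lower and 3 higher, and for light-signalling genes 0.82, in place of 0.80, with 7 higher. Of the named genes, EMB3119, PAL4, PIL6, PSBX, RPT2, SIP3 and eIFiso4G1 lost their calls under it, with edgeR adjusted p between 0.0512 and 0.1. Calls also grew with depth: 5.46%, 6.41% and 17.0% of the loci were called in the tertiles of lowest, middle and highest mRNA count. Lists differ in depth as well. The median mean mRNA count was 395.25 for antenna, 134.5 for photosystem and 14.5 for light-signalling genes. It was 12.375 for uORF hosts and 9.75 for clock genes. The shares called in these lists were therefore not obtained at equal depth.

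**Figure D5:**
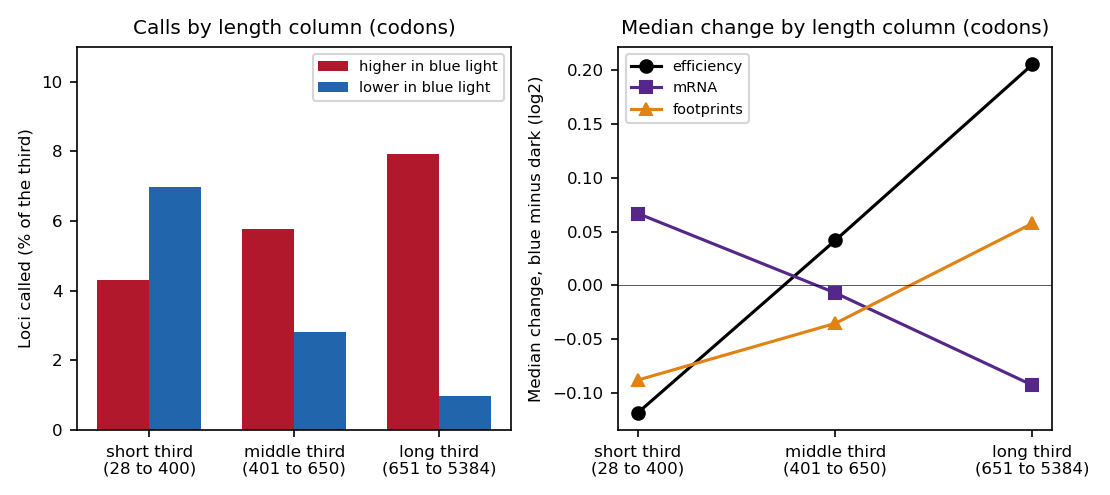
Share of loci called higher or lower in efficiency (percent) and median change in efficiency, mRNA and footprints (log2, blue light minus dark) in tertiles of coding length (2023, 2024 and 2021 loci from short to long). Higher calls are 4.3% in the shortest and 7.92% in the longest tertile, and lower calls 6.97% and 0.99%.

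Levels of efficiency spread far more between genes than between the light conditions. The SD of the efficiency level over the 6068 loci was 1.81 and 1.86 in blue light and 1.90 and 1.73 in dark for the same-numbered pairs of libraries. The 5th to 95th percentiles ran from -2.90 to 2.98 and from -2.96 to 3.03 in blue light, and from -3.06 to 3.17 and from -2.78 to 2.78 in dark. The counting error of mRNA at loci with few counts is part of this spread. The median level of the loci called higher was 1.11 in blue light and -0.90 in dark, and that of the loci called lower was -0.42 in blue light and 1.15 in dark. Over all loci, the 4 blue pairings lay wholly above the 4 dark pairings at 21.7% and wholly below at 17.1%, called loci included. Of the called loci, 364 of 364 higher and 216 of 218 lower had no overlap.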

How the data were processed

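Ribosome footprints (RNase I digestion, ribosome pelleting) and mRNA (TruSeq) were sequenced in 2 libraries each from blue light and dark. The deposited files hold whole-number counts per transcript model, not normalized, and another deposited column with a value close to the coding length in codons. Per the submitters' processing notes, the build was TAIR10 and the tools included TopHat2 2.0.9, Bowtie2 2.1.0 and CASAVA 1.8; their roles, the counting tool and its use of strand are not given in the sources used here, so reads of overlapping genes cannot be told apart. Of the tested loci, 1847 overlap another annotated gene. Besides those given above, these include ATR1, CESA1, PORB, MTN1, F3H, PRK, PGK1, EMB3119, GAPA, TIM, CHLI1, GUN4, eIFiso4G1 and HSP101. The uncalled EBF2 and CAB1 overlap another gene too. Gene symbols came from RefSeq, which matched 6061 of the 6068 tested loci and gave 3309 a symbol.

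For each locus the model of largest length was kept. Loci passing filterByExpr (minimum count 10) in the footprint and in the mRNA libraries separately were tested. As 2 libraries suffice to pass, a locus can pass through 1 light condition only and then had to differ. This was so for mRNA of UGP2, STV1, F3H, PK1, BGLU6 and MTN1 and for footprints of ATGA2OX1 and BBX32, among others. How many called loci it covers was not counted. edgeR 4.0.16 in R 4.3.3 fitted 4 group means with TMM over all 8 libraries, and the contrast (footprints blue minus dark) minus (mRNA blue minus dark) was tested by the two-sided quasi-likelihood F test with Benjamini-Hochberg adjustment over all 6068 loci. Calls are at adjusted p under 0.05. Standard errors are the change divided by the square root of F. They are approximate and, at few counts, can be below the counting error. Both assays shared a common dispersion (scatter beyond counting error) of 0.0041. Fitted alone, the mRNA libraries gave 0.0498 and the footprint libraries 0.0021. The shared value is below the mRNA scatter, so standard errors and adjusted p can be too small at higher counts as well. With a separate spread for each assay, 259 loci were called higher and 152 lower. Efficiency levels are log2 ratios of CPM with 0.5 added. Alternatives used limma 3.58.1 and DESeq2 1.42.0. The fitting code was run on simulated counts with the same dispersion for all loci of an assay. Real loci can differ in scatter, so no support for the calls is drawn from that run.

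Named genes are the 15 largest rises and falls among called loci with a symbol, a mean of at least 20 counts in each assay and no overlap of blue and dark pairings, up to 4 members of each of 20 lists by absolute change, and the tested uORF hosts. Members and lists were chosen with earlier results of these data known. The replicate numbers marked no shared deviation: correlations of same-numbered libraries' deviations from the group means lay between 0.004 and 0.024.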

Additional observations from a re-analysis of the deposited data

Results flagged for a closer look

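The chloroplast locus ATCG00020, which encodes the D1 protein of photosystem II, lies outside the nuclear comparison and was the only chloroplast locus with higher efficiency when organelle loci were fitted together with the nuclear ones. Its change was 1.76 ± 0.23 (edgeR adjusted p = 1.01e-05), from footprint counts of 896 and 647 in blue light and 139 and 202 in dark, and mRNA counts of 2036 and 1627 in blue light and 2266 and 2490 in dark. In that fit 19 of 76 chloroplast loci were lower, with a median of -0.74, and 2 of 25 mitochondrial loci were lower and 0 higher, with a median of -0.19. Of the 6068 nuclear loci in it, 320 were higher and 283 lower. The 76 include pairs with the same mRNA counts, such as ATCG00830 with ATCG01310 and ATCG00860 with ATCG01280. Their number and median thus count some genes more than 1 time.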

How the results depend on the processing

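No call of a named gene changed its direction under any alternative run. The counts of higher and lower loci (364 and 218) were 374 and 230 with TMM within each assay, 334 and 204 with limma-voom, 259 and 152 with a separate spread per assay, 393 and 240 with no filter, 320 and 283 with organelle loci included, and 360 and 224 with the first model per locus. A stricter filter (a mean of 50 counts) left 461 loci, with 89 higher and 156 lower. The replicate numbers share only a number; with a replicate block the counts were 294 and 162, and with a block within each light condition 261 and 139. Without 1 library at a time they ran from 215 to 380 higher and from 96 to 289 lower. The counts moved by over 1.5 times without each footprint library: 238 and 112 without blue replicate 1, 238 and 119 without blue replicate 2, 231 and 115 without dark replicate 1, and 215 and 96 without dark replicate 2. Of 122 named genes called, 74 kept their call without each library and 73 under every alternative. List medians as fitted changed sign under at least 1 alternative for cytosolic ribosomal proteins, translation factors, starvation genes, aquaporins, root markers and seed reserves. Under the stricter filter they did so for the flavonoid list (-0.03, 3 genes) and the photoprotection list (-0.24, 4 genes). The median over all loci was itself -0.19 under that filter. Relative to all loci, the flavonoid list was then at 0.16 and the photoprotection list at -0.06. Depth of mRNA limits the comparison: loci that failed the filter on mRNA counts were not tested, and a change near the median standard error of 0.49 was not detectable.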
